A study of Macaca mulatta with 28 samples.

Results

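The 10 genes described here encode RGS proteins, the regulators of G protein signaling, and were taken from the deposited count table by symbol: RGS2, RGS4, RGS6, RGS7, RGS8, RGS9, RGS10, RGS14, RGS16 and RGS17, out of 16885 rows that carry a gene symbol. The table held 1 Ensembl transcript for each of them, so every value below belongs to that transcript and not to all isoforms of the gene. RNA came from a punch of midbrain tissue, the VTA (ventral tegmental area), where the dopamine neurons that reach the nucleus accumbens have their cell bodies, in 28 male wild-type rhesus macaques, with 1 library per animal. The 17 drinkers had chosen to drink alcohol in long open-access periods broken by forced abstinences, and tissue was collected on day 30 of the last abstinence. They were labelled by drinking phenotype as Low (1 animal), Binge (2), Heavy (5) or Very Heavy (9), and the 11 Control animals were calorically yoked or housing controls without alcohol access. The animals came in 2 cohorts, with 8 drinkers and 8 controls in cohort 1 and 9 drinkers and 3 controls in cohort 2, and the cohorts held the categories unequally: 4 of the 5 Heavy animals and the Low animal were in cohort 1, whereas 6 of the 9 Very Heavy animals and both Binge animals were in cohort 2.

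RGS proteins bind the active, GTP-bound alpha subunit of a heterotrimeric G protein and speed its hydrolysis of GTP, which ends the signal of a G protein coupled receptor sooner. In the VTA the receptors coupled to Gi and Go include the D2 dopamine autoreceptor and the kappa and mu opioid receptors, which slow the firing of their neurons or reduce transmitter release. The 10 genes fall into 4 subfamilies: the small R4 proteins (RGS2, RGS4, RGS8 and RGS16), the neuronal R7 proteins, which are stabilized by the beta subunit GNB5 (RGS6, RGS7 and RGS9), the R12 proteins (RGS10 and RGS14), and the RZ proteins (RGS17).

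On the rhesus assembly Mmul_10, in the RefSeq annotation, 5 of the 10 genes lay on chromosome 1. RGS16 (chr1:39851196-39857392, minus strand) and RGS8 (chr1:39895186-39937780, minus strand) were neighbors with 37793 bases between them. RGS4 (chr1:20602707-20610936), RGS2 (chr1:50104056-50107166) and RGS7 (chr1:7721844-8288779) stood elsewhere on that chromosome, all on the plus strand. RGS17 was on chromosome 4 (chr4:59212269-59333475, minus strand), RGS14 on chromosome 6 (chr6:174847198-174862388, plus strand), RGS6 on chromosome 7 (chr7:134044134-134669758, plus strand), RGS10 on chromosome 9 (chr9:119981531-120024459, minus strand) and RGS9 on chromosome 16 (chr16:61527523-61628836, plus strand). The reads were assigned to transcripts by Salmon, which works from short stretches of bases that a read shares with a transcript, so sequence held by more than 1 gene can be divided between them. Of the 31-base stretches in each gene's RefSeq transcripts, none were found in a transcript of another gene for RGS2, RGS4, RGS6, RGS10, RGS14 and RGS17. RGS8 and RGS16 shared 6 such stretches with each other, which form 1 run of 36 bases in coding exon 4 of the 5 exons of RGS16 (chr1:39854649-39854684, minus strand), shown because reads from it fit both of these neighbors. The Ensembl transcripts to which the deposited counts belong were not compared in this way:
RGS8 and RGS16, shared run: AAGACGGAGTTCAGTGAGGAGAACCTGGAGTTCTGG
In addition, RGS7 shared 11.2% of its stretches with the unnamed gene model LOC114674606 and RGS9 shared 1.63% with other genes. Reads from these stretches could be divided between genes, and the effect on the deposited counts of RGS7 and RGS9 was not tested.

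The steadiest and the most variable of the well-counted members had start regions of different base composition, and both are shown for that contrast, a choice made after their values were seen. Each line gives the 250 bases before the annotated start of the gene, 5′ to 3′ on the gene's strand, with capitals marking every match on either strand. The TATA box was searched as the letters TATAAA. The GC box, to which Sp1 proteins bind, was searched as the letters GGGCGG. The half-site of the cyclic AMP response element (CRE), by which CREB acts, was searched as the letters TGACG. The CCAAT box was searched by the letters of its name:
RGS2, chr1:50103806-50104055, plus strand: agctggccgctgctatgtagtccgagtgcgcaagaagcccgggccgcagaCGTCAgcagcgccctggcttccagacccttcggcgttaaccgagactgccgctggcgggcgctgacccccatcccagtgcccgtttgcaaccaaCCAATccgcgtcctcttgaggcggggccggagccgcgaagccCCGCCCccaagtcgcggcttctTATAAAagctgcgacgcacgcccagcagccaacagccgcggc
RGS4, chr1:20602457-20602706, plus strand: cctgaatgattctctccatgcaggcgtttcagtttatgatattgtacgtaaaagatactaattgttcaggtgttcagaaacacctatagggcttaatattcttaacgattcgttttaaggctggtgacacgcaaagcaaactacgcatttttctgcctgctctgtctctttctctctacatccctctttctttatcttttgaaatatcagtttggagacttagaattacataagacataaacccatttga
The RGS2 window was 68% G and C and held all 4 motifs, the CRE half-site overlapping none of the others. The RGS4 window was 36.8% G and C and held none of them. Among 20782 windows of the same length before protein-coding genes, the median was 57.2% G and C, and 9.85% held the TATA box, 31% the CCAAT box, 43.7% the GC box and 19.8% the CRE half-site. The element bound by NR4A receptors (AAAGGTCA) was in 0.938% of all windows and in none of the 10 members' windows. These matches describe the letters in the window, and factor binding was not measured. A relation of base composition to spread was not tested and cannot be read from the windows shown. Among the other members, G and C ran from 49.6% in RGS16 to 83.2% in RGS17, genes of similar spread over the animals (SD 1.19 and 1.17 on the log2 scale).

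The libraries held 12303914 to 27338669 assigned counts, with a median of 22020291, and transcripts of the mitochondrial genome took 36.4 to 60.6% of them. Cohort 1 drinkers had fewer transcripts with a count (10554 to 11898) than cohort 1 controls (11718 to 12550), and the part of this difference in the fold changes below was not tested. Of the dopamine neuron markers, TH and the dopamine transporter SLC6A3 had counts in every library but at very different levels, SLC6A3 ranging from 6.35 to 833 CPM (counts per 1000000 counts of the scaled library total). All 10 members passed the filter for testing, which asked for at least 5 counts in at least 3 animals. In the tests below, a fold change is the difference in mean level on the log2 scale, SE is its standard error, and a member was called at a Benjamini-Hochberg adjusted p under 0.05 in the edgeR quasi-likelihood test, with the adjustment made over every transcript tested.

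The comparison of drinkers with controls asked whether a history of drinking left a lasting mark on transcription in the VTA. No member was called, and the table as a whole gave 0% of 13769 transcripts called and 4.57% with an unadjusted p under 0.05, a mark that no member reached. With cohort as a covariate RGS9, which had a count in 4 animals, did reach it (edgeR p = 0.00646, adjusted p = 0.456). Its counts in controls alone were enough to pass the filter for testing, so that p is not read as a result. Of the 9 members other than RGS9, 5 were higher in drinkers and 4 lower, with a median log2 fold change of 0.06 beside 0.00 over all transcripts tested. The width of the intervals differed greatly between members, so the same absence of a call leaves room for very different effects. For RGS2 the log2 fold change was 0.06 with a 95% confidence interval of -0.12 to 0.25, and it ranged from 0.007 without Control 8 to 0.087 without Control 1. For RGS8 it was -0.44 with an interval of -2.22 to 1.34, and it ranged from -0.71 without Heavy 1 to -0.26 without Control 3.

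RGS2, an R4 protein that acts mainly on Gq and whose transcript is induced by neuronal activity, was the steadiest member. It had 19.2 CPM in the lowest control, a median of 31.5 and 36.9 in the highest control, and 26.7, 31.4 and 44.3 CPM in the lowest, median and highest drinker. The groups overlapped between 26.7 and 36.9 CPM, and the means of 31.4 ± 5.1 CPM (SD, n = 11) and 32.8 ± 5.09 CPM (SD, n = 17) differed by less than 1 SD. Across all 28 animals its SD on the log2 CPM scale was 0.23, lower than that of 85.7% of the transcripts tested. Control 8 was the lowest animal and Heavy 1 the highest.

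RGS4, an R4 protein of neurons that limits Gi/o and Gq signals, was the most variable of the members with a count in every animal. Its SD was 1.38 on the log2 CPM scale, and it ranged from 10 to 1099 estimated counts. Controls had 0.472 CPM at the lowest, 7.53 at the median and 23.1 at the highest, and drinkers had 0.811, 9.34 and 44.6 CPM. The log2 fold change over all animals was 0.56 (SE 0.465, edgeR adjusted p = 1), and it was 0.31 without Heavy 1, the highest animal. With the score of general neuron markers described below held in the fit it was 0.34 (edgeR p = 0.395, adjusted p = 1).

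The other R4 genes, the neighbors RGS8 and RGS16, behaved unlike each other. RGS8, a brain protein acting on Gi/o, was barely detected, with 0 to 62 counts and a count of 0 in 6 animals, of which 5 were drinkers and 1 was a control. RGS16, which acts on Gi/o and Gq, had 41 to 1071 counts and lay in a wide spread. Its lowest, median and highest CPM were 3.5, 7.36 and 46.7 in controls and 1.86, 7.45 and 43 in drinkers. The medians of the groups were close, and the spread came from 5 animals at 30.3 CPM or more, while the other 23 were at 14.7 CPM or less. These 5 were Control 10, Very Heavy 3, Very Heavy 4, Very Heavy 7 and Binge 2, that is 1 of 11 controls and 4 of 17 drinkers. Single animals of this kind moved the fold change of drinkers against controls, which was 0.41 with all animals (SE 0.48, edgeR adjusted p = 1), 0.99 without Control 10 (interval 0.08 to 1.91, edgeR p = 0.0349, adjusted p = 0.937) and 0.21 without Very Heavy 3.

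Among the R7 genes, RGS7 was the one with a count in all libraries. It had 1.61 CPM in the lowest control, 6.65 at the median and 11.2 at the highest, against 3.62, 6.95 and 11.2 CPM in drinkers, with a log2 fold change of 0.08 (SE 0.222). RGS6, known for its action on Gi/o in heart and brain, was at 0 counts in 6 animals and reached 60 counts. RGS9, whose brain isoform is best known from the striatum, was at 0 in 24 of 28 animals, and the exceptions were Control 4 with 0.907 CPM, Control 9 with 0.375 CPM, Control 10 with 1.48 CPM and Binge 1 with 0.791 CPM. A count of 0 allows up to 3 counts in a library, which was 0.112 to 0.238 CPM here, a limit that covers counting error only. No fold change is given for RGS9, since 8 of the 11 controls and 16 of the 17 drinkers were at 0.

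Of the R12 genes, RGS10, a small RGS protein found in microglia as well as neurons, had 6.59, 8.97 and 13.1 CPM in the lowest, median and highest control and 2.52, 8.29 and 15 CPM in drinkers. Its log2 fold change was -0.10 with an interval of -0.46 to 0.26, the second narrowest after RGS2, and it ranged from -0.17 without Very Heavy 3 to -0.03 without Control 9. RGS14, a protein that also binds Ras-family GTPases, had 0.759, 2.38 and 4.16 CPM in controls and 0, 2.13 and 4.03 CPM in drinkers. The RZ gene RGS17 had 2.06, 4.41 and 7.77 CPM in controls and 0, 3.88 and 6.86 CPM in drinkers. The 2 values at 0 in these last genes belonged to different animals: Very Heavy 2 had no count of RGS14, and Very Heavy 1 had none of RGS17.

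**Figure D1:**
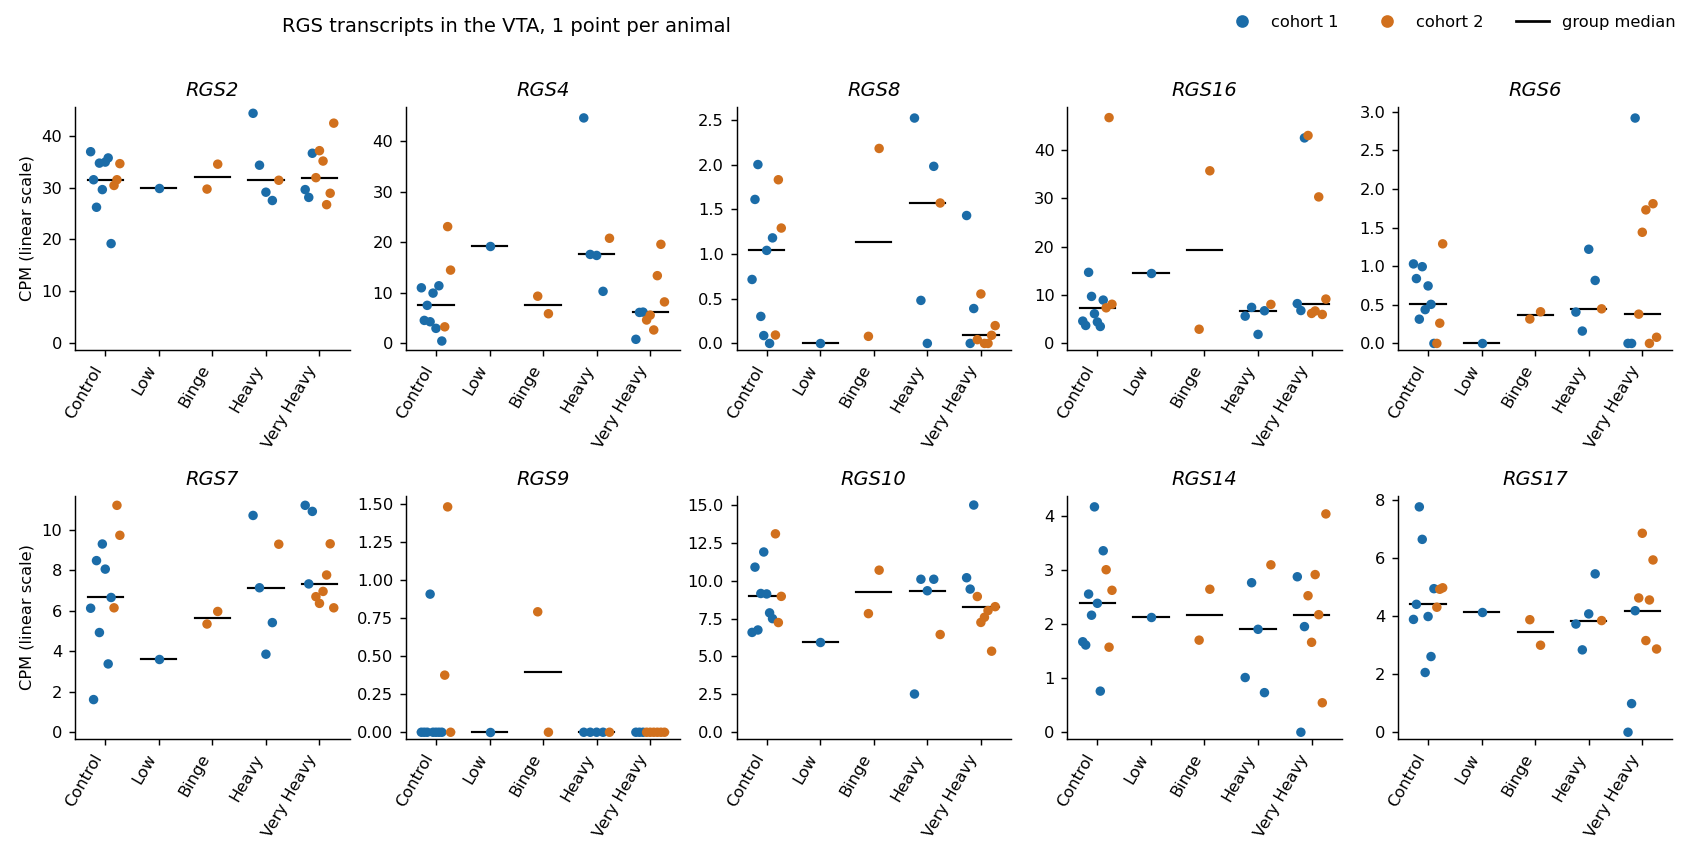
CPM (linear axis) of the 10 RGS transcripts in the VTA, with 1 point per animal, drinking categories along the horizontal axis, cohort by color and the group median as a line. RGS2 stays between 19.2 and 44.3 CPM in every group, RGS16 has 5 animals at 30.3 CPM or more, and RGS9 is at 0 in 24 of 28 animals.

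Within cohort 1, drinkers and controls were equal in number. No member was called there (0.0382% of 13086 transcripts were called and 10.2% had an unadjusted p under 0.05). The calls over the table were 5, and fell to between 1 and 4 when each animal was left out in turn. RGS4 came nearest, with 0.811, 13.8 and 44.6 CPM in the lowest, median and highest drinker and 0.472, 6.04 and 11.4 CPM in controls. In 4 of the 8 drinkers RGS4 was above the highest control, and the other 4 lay within the range of the controls. The log2 fold change was 1.23 with an interval of -0.09 to 2.55 (edgeR p = 0.0655, adjusted p = 0.541), and it ranged from 0.77 to 1.42 over the fits without 1 animal, the lowest without Heavy 1. With the general neuron score held in the fit it was 0.57 (edgeR p = 0.4, adjusted p = 0.954). RGS16 was 0.75 higher on the log2 scale in cohort 1 drinkers (SE 0.509, edgeR adjusted p = 0.731), where Very Heavy 3 had 42.5 CPM and the other drinkers had 14.6 CPM or less. Without Very Heavy 3 the difference was 0.07 (edgeR adjusted p = 0.995).

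In cohort 2, with only 3 controls, the comparison was less precise. No member was called (0% of 12785 transcripts called, 3.76% with an unadjusted p under 0.05). RGS4 had 3.28, 14.5 and 23.1 CPM in the 3 controls and 2.66, 8.21 and 20.8 CPM in the lowest, median and highest of 9 drinkers, a log2 fold change of -0.44 with an interval of -1.76 to 0.88. RGS16 had 7.36, 8.1 and 46.7 CPM in the controls, so that 1 control decided its fold change: -0.33 with all animals and 1.09 without Control 10. The RGS4 value also turned from -0.44 to 0.17 without that animal, which was the highest control for both genes. Of the 9 members other than RGS9, 7 were lower in cohort 2 drinkers, with a median log2 fold change of -0.31 beside 0.01 over all transcripts, and all of their intervals held 0.

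The difference between the drinking effects of the cohorts was tested as an interaction. No member was called (0.0145% of 13769 transcripts called, 9.62% with an unadjusted p under 0.05), and none had an unadjusted p under 0.05. The point estimate was -1.68 on the log2 scale for RGS4, cohort 2 minus cohort 1, with an interval of -3.6 to 0.25 (edgeR p = 0.085, adjusted p = 0.607). For RGS2 it was -0.02 with an interval of -0.43 to 0.39. The opposite signs of RGS4 in the cohorts were therefore not shown to differ.

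Between the cohorts themselves, with drinking held in the fit, no member was called (0.0436% of transcripts called, 9.8% with an unadjusted p under 0.05). RGS16 was 0.88 higher in cohort 2 on the log2 scale, with an interval of -0.04 to 1.79 (edgeR p = 0.0593, adjusted p = 0.526). Of the 5 animals at 30.3 CPM or more, 4 were among the 12 of cohort 2 and 1 was among the 16 of cohort 1. The unadjusted p was under 0.05 for RGS9 alone, which had a count in 3 of 12 cohort 2 animals and 1 of 16 cohort 1 animals. Its counts in cohort 2 alone were enough to pass the filter, so this p is not read as a result.

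**Figure D2:**
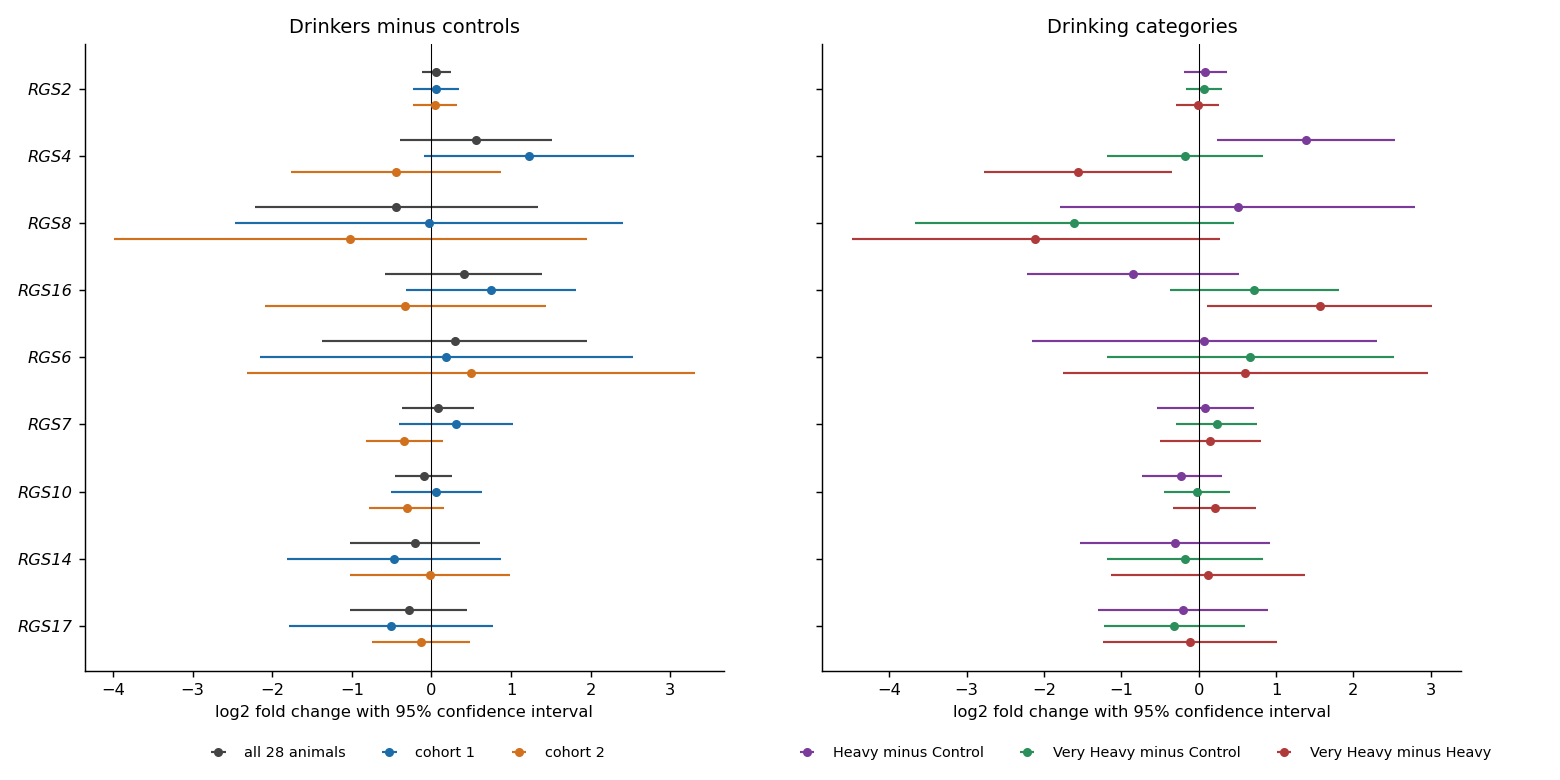
Log2 fold changes with 95% confidence intervals (edgeR) of 9 members, with drinkers minus controls on the left for all animals and for each cohort, and the category contrasts on the right. The intervals of RGS2 are the narrowest, RGS4 stands at 1.39 for Heavy minus Control and -1.57 for Very Heavy minus Heavy, and no contrast had an adjusted p under 0.05.

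The drinking categories asked whether members followed the amount drunk. RGS4 did not run in one direction from Control to Very Heavy. The 5 Heavy animals had 10.3, 17.4, 17.6, 20.8 and 44.6 CPM, while the Very Heavy animals had 0.811, 6.13 and 19.6 CPM and the controls 0.472, 7.53 and 23.1 CPM at the lowest, median and highest. The Low animal was at 19.2 CPM and the Binge animals were at 5.87 and 9.34 CPM. All Heavy animals were above the medians of both other groups, and the groups overlapped. RGS4 was 1.39 higher in Heavy animals than in controls on the log2 scale (SE 0.561, interval 0.23 to 2.54, edgeR p = 0.0203, adjusted p = 0.668) and fell by 1.57 from Heavy to Very Heavy (SE 0.589, interval -2.78 to -0.35, edgeR p = 0.0133, adjusted p = 0.617). With cohort as a covariate these values were 1.58 (adjusted p = 0.53) and -2.11 (adjusted p = 0.623). Without Heavy 1 the first was 0.98 with an unadjusted edgeR p of 0.115, and the second was -1.16 with an unadjusted edgeR p of 0.0743.

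The general neuron markers, scored over the animals as described below, also had their highest group median in Heavy animals, a difference that was not tested. Heavy 1 was the highest animal in both RGS4 and this score, and no fit held the score without that animal. The score was 1.615, 1.09, 0.48, 0.36 and -0.307 in the Heavy animals, against -1.749, 0.058 and 0.831 at the lowest, median and highest in controls and -0.917, -0.057 and 0.573 in Very Heavy animals. With this score held in the fit RGS4 was 0.71 higher in Heavy animals than in controls (SE 0.579, interval -0.48 to 1.91, edgeR p = 0.228, adjusted p = 1). The difference of Very Heavy from Heavy animals was then -0.72 (SE 0.608, interval -1.97 to 0.53, edgeR p = 0.246, adjusted p = 1). In bulk tissue, fewer cells of a type and less RNA per cell cannot be told apart. In the contrast of Heavy animals with controls, without the score, 0% of transcripts were called and 7.15% had an unadjusted p under 0.05, and in that of Very Heavy with Heavy animals 0% and 6.8%.

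RGS16 had the opposite sign between Very Heavy and Heavy animals. The 5 Heavy animals had 1.86, 5.64, 6.75, 7.45 and 8.07 CPM, and the Very Heavy animals had 5.99, 8.23 and 43 CPM at the lowest, median and highest. The difference of 1.57 on the log2 scale (SE 0.707, interval 0.11 to 3.02) had an edgeR p of 0.0356 and an adjusted p of 0.691, and was 1.31 with cohort as a covariate (p = 0.0721, adjusted p = 0.833). It was 1.94 with the general neuron score in the fit (p = 0.0159, adjusted p = 0.602) and between 1.28 and 1.70 when each Heavy or Very Heavy animal was left out. The 3 highest of the 9 Very Heavy animals were at 30.3, 42.5 and 43 CPM, and the other 6 were at 9.17 CPM or less. RGS8 had 0, 0.481, 1.57, 1.98 and 2.52 CPM in Heavy animals and 0, 0.0907 and 1.43 CPM at the lowest, median and highest in Very Heavy animals, a log2 fold change of -2.11 with an interval of -4.49 to 0.27.

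In Very Heavy animals against controls no member was called (0% of transcripts called, 4.62% with an unadjusted p under 0.05). The unadjusted p was under 0.05 for RGS9 alone, which was at 0 in all 9 Very Heavy animals and in 8 of the 11 controls. The 5 Heavy animals were all at 0 as well, and in their contrast with controls the unadjusted p was under 0.05 for RGS4 and RGS9. For RGS9 the counts in controls alone were enough to pass the filter, so its p values in these contrasts are not read as a result. RGS2 had means of 31.4 ± 5.1 CPM in controls (SD, n = 11), 33.3 ± 6.66 in Heavy (SD, n = 5) and 32.9 ± 5.2 in Very Heavy animals (SD, n = 9). RGS7 had means of 6.86 ± 2.85, 7.28 ± 2.78 and 8.06 ± 1.91 CPM in the same order, and RGS10 had 9.01 ± 2.15, 7.71 ± 3.27 and 8.9 ± 2.68 CPM. These groups lay within 1 SD of each other for all 3 genes.

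The members sit in different cells, and a punch can hold more or less of each cell type, so each member was set against marker scores over the 28 animals. A score is the mean of the z-scored log2 CPM of the markers of a list, and 80 relations (10 members, 8 lists) were tested by permutation. Only 2 of the 80 had an adjusted p under 0.05.

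RGS16 rose and fell with the dopamine neuron markers. Pearson's r with the score of 9 markers was 0.704 (permutation p = 3e-05, adjusted p = 0.0024) and Spearman's rho was 0.723 (permutation p = 1e-05, the smallest that the permutations can give). It was 0.692 within cohort 1, 0.869 within cohort 2, 0.718 in controls and 0.758 in drinkers, and 0.789 without the 2 animals farthest from the median score. The 5 animals at 30.3 CPM or more of RGS16 had SLC6A3 at 437 to 833 CPM, and their scores ranked 3, 4, 6, 7 and 9 of 28. High dopamine markers did not always come with high RGS16. Control 3 and Control 5, which ranked 1 and 2 in the score, had 14.7 and 6.14 CPM of RGS16. Heavy 2 and Control 8, which ranked 5 and 8, had 7.45 and 8.96 CPM. All 4 belonged to cohort 1.

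By single markers the relation was uneven. RGS16 had r = 0.804 with SLC6A3, 0.798 with PITX3, a transcription factor of dopamine neurons, 0.703 with the dopamine-synthesis enzyme DDC and 0.697 with TH, the rate-limiting enzyme of that pathway. The r was 0.675 with the vesicular transporter SLC18A2 and 0.611 with EN1. It was 0.109 with ALDH1A1, which marks a subset of dopamine neurons, and -0.02 with NR4A2, which had a median of 4 counts. When the dopamine score was held in the fit, the RGS16 difference between Very Heavy and Heavy animals was 1.13 in place of 1.57 (edgeR adjusted p = 0.61), and the difference between cohorts was 0.65 in place of 0.88 (edgeR adjusted p = 0.454).

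Among 8680 other transcripts with a mean log2 CPM of at least 1, SLC6A3 was the most like RGS16 over the animals, followed by FGF13 (r = 0.803) and RSPO2 (r = 0.769). These 3 held r of 0.78, 0.814 and 0.72 without the 2 animals farthest from the RGS16 median, and 0.763, 0.864 and 0.67 within cohort 1.

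RGS4 followed the general neuron markers instead. With the score of 4 such markers r was 0.588 (permutation p = 0.00115, adjusted p = 0.046) and rho was 0.513 (permutation p = 0.00578), with r = 0.597 in cohort 1 and 0.618 in cohort 2. Without the 2 animals farthest from the median score it was 0.293. Those were Heavy 1, highest in both the score and RGS4, and Control 8, lowest in both, and both belonged to cohort 1, so that the value in cohort 2 holds neither. RGS4 had an r of 0.03 with the dopamine score. Its most similar transcripts, TOMM40L (r = 0.723), GNPDA2 (0.717) and CDS2 (0.715), fell to 0.429, 0.334 and 0.559 without Control 8 and Very Heavy 1, the animals farthest from the RGS4 median.

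**Figure D3:**
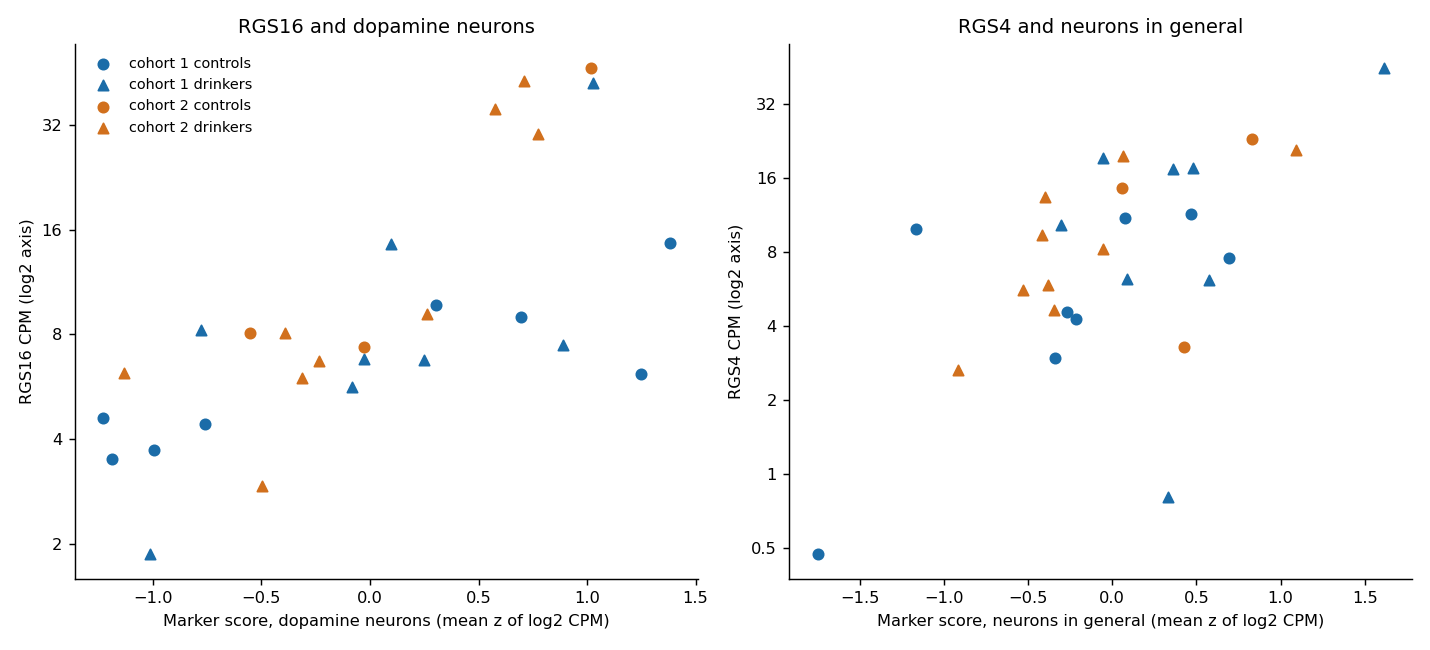
RGS16 against the dopamine neuron score and RGS4 against the general neuron score, with CPM on a log2 axis, 1 point per animal, cohort by color, circles for controls and triangles for drinkers. RGS16 reaches 30.3 CPM or more in 5 animals, all with scores from 0.574 to 1.03, and in the RGS4 panel Heavy 1 lies at the top right and Control 8 at the bottom left, with r = 0.588 over all animals and 0.293 without them.

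The largest r of RGS10 was with the microglia markers (r = 0.486, permutation p = 0.0136, adjusted p = 0.342, Spearman's rho 0.505 with a permutation p of 0.00712), and r was 0.379 in cohort 1 and 0.793 in cohort 2. The relation did not pass the adjustment. Another 8 relations of members other than RGS9 had an unadjusted p under 0.05 and an adjusted p of 0.342. One was RGS7 with the dopamine score, where r was 0.402 over all animals (rho 0.325, permutation p = 0.0919), 0.48 in cohort 1 and 0.152 in cohort 2, and 0.568 in controls and 0.148 in drinkers. Another was RGS2 with immediate early genes, where r was 0.412 (rho 0.319, permutation p = 0.0986), 0.305 in cohort 1, 0.669 in cohort 2, 0.104 in controls, 0.617 in drinkers and 0.262 without the 2 animals farthest from the median score. None of the 4 hemoglobin and erythroid markers could be scored, so blood content was not measured. ALAS2 was at 0 in all libraries, and HBB and HBA2 were not among the symbols of the count table. Total counts, the mitochondrial share and the number of transcripts with a count gave no relation with an adjusted p under 0.05 for any member.

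**Figure D4:**
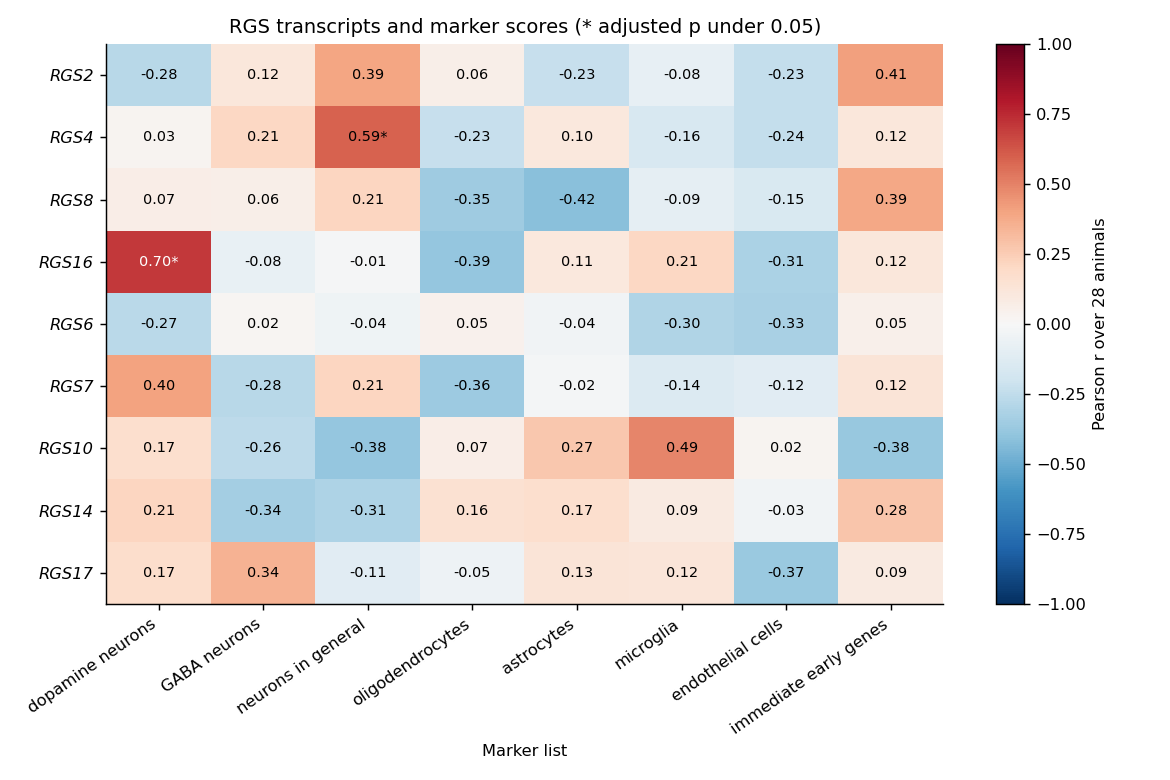
Pearson r over 28 animals between the log2 CPM of 9 members (rows) and 8 marker scores (columns), on a color scale from -1 to 1, with an asterisk where the permutation p adjusted over all relations was under 0.05. The mark is on 2 cells: RGS16 with dopamine neurons (0.70) and RGS4 with neurons in general (0.59).

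Of the 45 pairs of members, none had an adjusted p under 0.05. The largest r in size between pairs without RGS9 was -0.447 for RGS4 and RGS10 (permutation p = 0.0213, adjusted p = 0.414, Spearman's rho -0.46 with a permutation p of 0.0145), and it was -0.402 in cohort 1, -0.601 in cohort 2 and -0.603 without the 2 animals farthest from the RGS4 median. It was -0.294 without Heavy 1, which had the highest RGS4 and the lowest RGS10, and -0.568 without Control 8, and it was -0.148 in controls and -0.572 in drinkers. RGS2 and RGS4 had r = 0.384 over all animals but -0.329 in cohort 2. The neighbors RGS8 and RGS16 had r = 0.134 (adjusted p = 0.999).

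The transcripts most like the remaining members were led by 1 or 2 animals in several cases. RGS14 had r = 0.855 with the kinase gene PRKCD, which was 0.424 without Very Heavy 2 and Very Heavy 8. For RGS17 the closest was NOB1 (r = 0.899), which was 0.133 without Very Heavy 1 and Very Heavy 2. RGS6 was most like NOS1, the neuronal nitric oxide synthase, with r = 0.774 over all animals, 0.82 in cohort 1 and 0.734 in cohort 2. NOS1 was at 0 in 7 animals, among them all 6 with RGS6 at 0, and over the 21 animals with a count of both genes r was -0.238. RGS8 was most like INPP4B (r = 0.665, and 0.667 without the 2 farthest animals). RGS7 was most like ARMCX1 (r = 0.728), RGS10 most like ANAPC16 (r = 0.749) and RGS2 most like AARSD1 (r = 0.679), and these were 0.562, 0.565 and 0.32 without the 2 farthest animals of each gene.

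In the rest of the pathway, no gene of the 4 lists examined was called in any of the 8 comparisons. The lists were 15 other genes of RGS, RGS-domain or RGS-binding proteins, of which 9 could be tested over all animals, 10 partners of RGS proteins (9 tested), 12 G protein alpha subunits (12 tested) and 18 Gi/o coupled receptors (17 tested). The binding proteins RGS7BP and RGS9BP stood in both of the first lists. Over all animals, 4 genes of the first list were higher and 5 lower in drinkers with a median log2 fold change of -0.08, and the alpha subunits were split 6 to 6 with a median of 0.01. The lowest p among the alpha subunits was that of GNAI3, an inhibitory subunit, with controls at 40.9, 51.6 and 60.1 CPM and drinkers at 47.8, 55.7 and 75.2 CPM at the lowest, median and highest (log2 fold change 0.18, edgeR p = 0.012, adjusted p = 0.84). RGS11, the R7 gene not among the 10 members, had 20.8, 29 and 34.3 CPM in controls and 12.8, 24.9 and 32.7 CPM in drinkers (log2 fold change -0.27, SE 0.123, edgeR p = 0.0358, adjusted p = 1). In cohort 1 its log2 fold change was -0.40 (edgeR p = 0.00899, adjusted p = 0.264). The drinking effect on RGS11 in cohort 2 minus that in cohort 1 was 0.455 (edgeR p = 0.0936, adjusted p = 0.633).

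The receptor with the lowest p was the mu opioid receptor OPRM1 (edgeR p = 0.00123, adjusted p = 0.518). Its deposited transcript was at 0 in all 11 controls and in 10 of 17 drinkers and never exceeded 23 counts, so no fold change is given. OPRM1 passed the filter through drinkers only, so this p is not read as a result. CNR1, the cannabinoid CB1 receptor, had the lowest p of the receptors between Very Heavy and Heavy animals. Heavy animals had 2.54, 8.29 and 11.4 CPM and Very Heavy animals 0.443, 2.91 and 5.9 CPM at the lowest, median and highest (log2 fold change -1.50, SE 0.449, edgeR p = 0.00252, adjusted p = 0.613). GNB5, which the R7 proteins need for their stability, was at 0 in 4 of 11 controls and 11 of 17 drinkers and reached 204 counts in controls and 201 in drinkers. Its cohort 1 value (edgeR p = 0.0308, adjusted p = 0.412) compares animals with and without a count of the 1 transcript in the table.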

How the data were processed

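The authors trimmed reads with Trim Galore 0.6.7, quantified them with Salmon 1.9.0 against Mmul_10, normalized the counts with DESeq2 1.36.0 and tested pairs of groups with the BioJupies package. The values the authors deposited are estimated counts from Salmon, not normalized, for 1 transcript per gene symbol. Of 16886 entries, 1 had no symbol (1.16e-05% of counts) and was left out. Counts were rounded and tested with edgeR 4.0.16 (quasi-likelihood, TMM, at least 5 counts in at least 3 animals of the fit, Benjamini-Hochberg), and the steps were tested on simulated data. CPM was computed with TMM-scaled totals, and log2 CPM with a prior count of 2. The table holds no transcript lengths, so levels were not compared between genes. Drinking phenotype came from the labels, and the cohort of each animal from the study's source data. The category contrasts came from 1 fit of 5 categories, and Low and Binge were given by value. Correlations used 100000 two-sided permutations of the animals. Every animal is 1 library, so the spread is between animals. The libraries sharing most of their counts, Low 1 and Very Heavy 2, had 14.4% identical values and were kept as separate animals. RGS9, at 0 in 24 animals, stayed in the tests, and its fold change was left out of the counts over members. Sequences and positions came from RefSeq on Mmul_10, with DESeq2 1.42.0, Python 3.11.15, numpy 2.4.6, pandas 2.3.3 and scipy 1.17.1 as further tools.

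The members and gene lists were chosen with earlier results of these data known. Beside the 10 members, the genes named were the 3 transcripts most correlated with each member and, for the lists, the genes with the lowest p. Alternatives were DESeq2 size factors and test, other count filters, leaving out mitochondrial transcripts, cohort, the dopamine neuron score or the general neuron score as a covariate, and leaving out Low and Binge animals. Each animal was left out in turn for all drinkers against controls, for each cohort, for Heavy against Control and for Very Heavy against Heavy, and not for the other comparisons. The dopamine covariate in the category contrasts, the general neuron covariate, the leave-outs of Very Heavy against Heavy and the likeness of RGS6 and NOS1 over animals with a count of both were added after the data were seen.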

Additional observations from a re-analysis of the deposited data

Results flagged for a closer look

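In groups of 4 to 10 animals, the highest or lowest animal was flagged where its gap to the next, over the whole range on the log2 CPM scale, passed Dixon's 95% critical value. Of 50 groups examined (10 members, 5 groups each), 10 were flagged. RGS9 was at 0 throughout Heavy, Very Heavy and cohort 1 drinkers, so these groups could not be flagged. Where only 1 animal of a group had a count of RGS9, a flag was certain. Zeros also lie at the floor of the log2 scale, so the chance rate of about 1 in 20 groups, which holds for normally distributed values, does not apply here. The groups share animals, so the flags are not independent.

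Control 8 was low among the 8 cohort 1 controls in RGS4, with 0.472 CPM where the others had 2.98 to 11.4 CPM, and in RGS6, with 0 CPM. The same animal had the lowest RGS2, at 19.2 CPM, and the lowest score of general neuron markers. Heavy 3 was low in RGS16 among the 5 Heavy animals, with 1.86 CPM where the others had 5.64 to 8.07 CPM, and its dopamine neuron score was -1.01.

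Very Heavy 2 had 0 CPM of RGS14 and was flagged among Very Heavy animals and among cohort 1 drinkers. Very Heavy 8 was low in the same gene among cohort 2 drinkers, at 0.544 CPM. Very Heavy 1 had 0 CPM of RGS17 and was flagged in both of its groups. RGS9 was flagged for the only animal with a count in its group, Control 4 at 0.907 CPM among cohort 1 controls and Binge 1 at 0.791 CPM among cohort 2 drinkers. The part that isoforms outside the table play in these zeros was not tested.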

How the results depend on the processing

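Over 142 alternative fits, of which 86 left out 1 animal each, none of the 1240 member values with an adjusted p was called, RGS9 left aside. Another 30 had none because the filter of at least 10 counts in every animal removed RGS6, RGS8, RGS14 and RGS17 (in cohort 2 RGS6 and RGS8 only), and DESeq2's test gave none to the 8 members other than RGS2 in cohort 1, where RGS4 had an unadjusted p of 0.0392. The lowest adjusted p was 0.311, for RGS4 in cohort 1 with at least 10 counts in every animal. Over the whole table DESeq2's test called more transcripts than edgeR: 11 in place of 0 for all drinkers against controls, 236 in place of 5 in cohort 1, 22 in place of 0 in cohort 2, 157 in place of 2 for the difference between cohorts in drinking effect, 121 in place of 6 between cohorts, and 22, 48 and 54 in place of 0 for Very Heavy against Control, Heavy against Control and Very Heavy against Heavy. With at least 10 counts in every animal edgeR called 3 in cohort 1 and 10 between cohorts, without a filter 3 in cohort 1, with DESeq2's size factors 3 between cohorts, with the dopamine score in the fit 2 in cohort 1 and 14 between cohorts, and with the general neuron score 1 in cohort 1. The 5 calls in cohort 1 ranged from 1 to 4 when single animals were left out, with 1 without Control 2, Control 5, Control 6, Low 1, Heavy 4 or Very Heavy 3, and 1 call replaced 0 in cohort 2 without Control 11 and in Very Heavy against Heavy without Very Heavy 2. The causes were not tested.

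Of 474 member fold changes in fits that left out no single animal, 11 changed sign. RGS4 between cohorts was -0.01 with DESeq2 size factors, -0.009 with DESeq2's test and -0.008 with the stricter filter, and with cohort as a covariate RGS10 was 0.043 in Very Heavy against Control and RGS14 was -0.042 in Very Heavy against Heavy. With the general neuron score in the fit RGS2 was -0.12 in cohort 1, RGS2 was -0.037, RGS7 -0.12 and RGS14 0.059 in Heavy against Control, and RGS2 was 0.12 and RGS14 -0.24 in Very Heavy against Heavy. Leaving out 1 animal changed signs as well, in ranges of log2 fold change as follows. In all drinkers against controls RGS6 ran from -0.015 to 0.48 and RGS7 from -0.018 to 0.18, while RGS14 (-0.30 to -0.089) and RGS17 (-0.36 to -0.18) kept their sign. RGS9 had an unadjusted p of 0.00224 there without the Low and Binge animals (edgeR adjusted p = 0.562) and 0.00144 without Binge 1 (edgeR adjusted p = 0.53). In both fits RGS9 had counts in controls only and passed the filter through them, so these p values are not read as a result. In cohort 1 RGS2 ran from -0.014 to 0.10, RGS6 from -0.68 to 0.38, RGS8 from -0.50 to 0.27 and RGS10 from -0.077 to 0.20. In cohort 2 RGS2 ran from -0.01 to 0.096, RGS4 from -0.90 to 0.17, RGS6 from -0.082 to 2.43, RGS14 from -0.24 to 0.18 and RGS16 from -0.72 to 1.09. In Heavy against Control RGS2 ran from -0.029 to 0.15, RGS6 from -0.34 to 0.32, RGS7 from -0.086 to 0.24 and RGS10 from -0.34 to 0.012. In Very Heavy against Heavy RGS2 ran from -0.078 to 0.096, RGS7 from -0.013 to 0.32, RGS10 from -0.03 to 0.33, RGS14 from -0.081 to 0.35 and RGS17 from -0.28 to 0.048. RGS4 kept its sign in cohort 1 (0.77 to 1.42) in Heavy against Control (0.98 to 1.67) and in Very Heavy against Heavy (-1.89 to -1.16), and RGS16 in cohort 1 (0.072 to 0.99).

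Of the correlations with an unadjusted p under 0.05, RGS2 with general neuron markers turned to -0.189 in cohort 2 and -0.148 without the 2 farthest animals, RGS2 with RGS4 to -0.329 and -0.13, and RGS10 with immediate early genes to 0.304 in cohort 2. RGS6 with its most similar transcript NOS1 turned from 0.774 to -0.238 over the 21 animals with a count of both. RGS16 with dopamine neuron markers was 0.646 on DESeq2's variance-stabilized values. Counts under 100 in RGS6, RGS8 and RGS9 limit what depth could show for them. No paired analysis was possible because the labels do not give which control was yoked to which drinker.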
